A study of Mus musculus with 16 samples.

Results

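The genes described here are 51 genes for the non-collagen extracellular matrix and for fibroblast activation, in hearts of neonatal mice with and without the cardiomyocyte gene *Lrrc10* after sham surgery or myocardial infarction (MI). They were taken from a list of gene symbols that was drawn up with earlier results of these data known. All 51 were found among the 51912 genes of the table by matching its Ensembl identifiers to GENCODE release M39, and 49 of them were among the 20159 genes that had enough counts in each group to be tested. *Spp1* and *Mmp3* were the other members, and their summed counts were under 10 in at least one sham group. The 4 groups of 4 libraries each were sham-operated wild-type mice (WT SH), sham-operated *Lrrc10*-/- mice (KO SH), wild-type mice with MI (WT MI) and *Lrrc10*-/- mice with MI (KO MI). Wild-type mice were C57BL/6J from a commercial supplier, and the *Lrrc10*-/- mice carried a whole-body knockout made on a C57BL/6 background. Whether the compared mice were littermates is not given in the sources used here. In the MI groups the left anterior descending artery was tied off on postnatal day 1 with the heart brought out of the chest, while the sham procedure left the heart in place and untied. The ventricles were collected 7 days later, and bulk RNA was sequenced from them.

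The extracellular matrix of the heart is laid down mainly by fibroblasts. After injury these cells become activated, turn on smooth muscle actin and secrete matricellular proteins such as tenascin-C and periostin, which signal to cells rather than bear load. Fibronectin forms the early scaffold, fibrillin and elastin make up elastic fibres, lysyl oxidases crosslink elastin and collagen, and proteases and their inhibitors set how fast the matrix is turned over. The neonatal heart expresses many of these genes without injury because its matrix is still growing.

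Levels are given in CPM, counts scaled to a common TMM-adjusted library size, in the order of the replicates, which are numbered 1, 2, 3 and 7 in KO MI and 1 to 4 in the other groups. Libraries held 33783874 to 57470159 counts, so that a floor of 3 counts equals 0.0577 to 0.0858 CPM. Per exon length, the level in TPM (CPM divided by exon length and rescaled) was highest for *Sparc*, a collagen-binding matricellular protein (mean 526 TPM over the 16 libraries). *Acta2*, *Postn* and *Fn1* followed with 169, 151 and 104 TPM. *Ccn5*, *Comp* and *Mmp3* were the lowest, at 0.329, 0.310 and 0.0656 TPM. *Lrrc10* had 0 counts in all 8 KO libraries and 1075 to 1850 counts in the WT libraries. *Xist* was high in 0 of 4 WT SH libraries and in 2 of 4 libraries of each other group. By this marker the sexes were not balanced between WT SH and the other groups, whereas the paper reports a balanced, sex-matched design. *Timp1* and *Bgn* lie on the X chromosome.

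A differentially expressed gene (DEG) needed a log2 fold change of 0.5 or more in either direction and an adjusted p below 0.1 in edgeR's quasi-likelihood test, adjusted by Benjamini-Hochberg over all 20159 genes. Every adjusted p below, written as edgeR adjusted p, comes from this test with Benjamini-Hochberg adjustment. Several matrix genes rose after MI in both genotypes. In bulk RNA, fewer cells of a type and less RNA per cell cannot be told apart, in every comparison below. In WT MI against WT SH, 9 of the 49 members tested were DEGs and all 9 were higher, beside 2.78% of all genes tested that were DEGs (2.13% higher and 0.645% lower). KO MI against KO SH gave 20 DEGs among the members, all higher, with 7.42% of all genes called (5.31% higher and 2.11% lower). Sham-operated KO hearts differed from sham-operated WT hearts mostly in the other direction, with 7 members lower and 2 higher, where 5.01% of all genes were called (2.53% lower and 2.48% higher). After MI the genotypes differed in 2 members, both lower in KO MI, and 1.73% of all genes were called (1.16% lower and 0.57% higher). No member was a DEG in the interaction, the test of whether the MI response differed between genotypes, in which 0.0248% of all genes were called (0.0198% higher and 0.00496% lower).

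**Figure D1:**
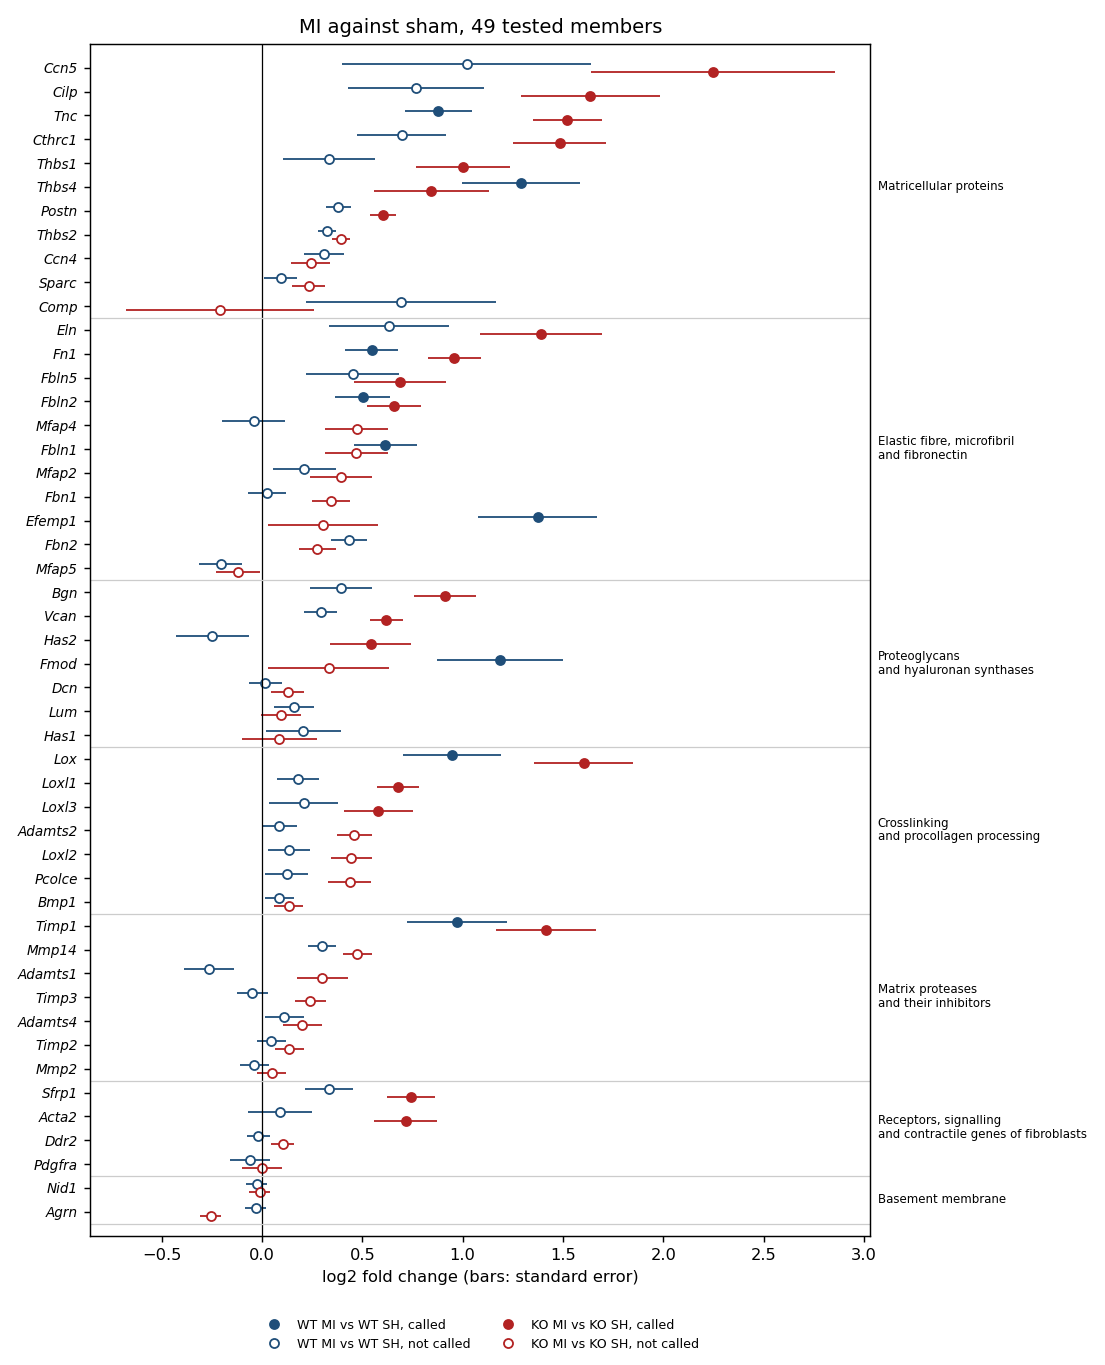
Log2 fold change with its standard error for each of the 49 tested members in WT MI against WT SH and in KO MI against KO SH, grouped by role. Of the members, 39 lay above 0 in WT and 44 in KO.

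Matricellular proteins made up 12 of the members, and 11 were tested. *Tnc*, which codes for the wound-associated glycoprotein tenascin-C (chromosome 4, 63878014 to 63965443 of GRCm39, the build of all gene positions here), was at 26.8, 22.4, 15.7 and 22.2 CPM in WT SH, 38.9, 40.1, 44.0 and 37.6 in WT MI, 13.6, 16.4, 15.3 and 15.1 in KO SH and 30.7, 61.8, 39.1 and 41.6 in KO MI. Every MI library lay above every sham library of its genotype, and KO MI replicate 2 was the highest of all 16. *Tnc* rose in WT MI by 0.88 (SE 0.17, edgeR adjusted p = 0.0088) on the log2 scale and in KO MI by 1.52 (SE 0.17, edgeR adjusted p = 0.000269), and it was lower in KO SH relative to WT SH, at -0.53 (SE 0.17, edgeR adjusted p = 0.0625). *Postn*, the gene of periostin (chromosome 3, 54268501 to 54298471), which is secreted by activated fibroblasts, was at 554, 523, 471 and 498 CPM in WT SH, 703, 669, 658 and 635 in WT MI, 362, 401, 405 and 396 in KO SH and 596, 658, 559.9 and 563 in KO MI. Its 4 groups fell in the order KO SH, WT SH, then the MI groups, and KO MI overlapped WT MI. *Postn* was a DEG in KO MI, at 0.60 (SE 0.06, edgeR adjusted p = 0.000269). The log2 fold changes of 0.38 (SE 0.06, edgeR adjusted p = 0.00373) in WT MI and of -0.39 (SE 0.06, edgeR adjusted p = 0.00161) in KO SH against WT SH passed the test but not the fold minimum.

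Collagen triple helix repeat containing 1, coded by *Cthrc1* (chromosome 15, 38940246 to 38950518), marks activated fibroblasts. It was at 3.36, 4.25, 3.26 and 2.93 CPM in WT SH, 5.19, 6.61, 5.58 and 4.97 in WT MI, 1.62, 1.81, 2.63 and 1.63 in KO SH and 4.80, 8.62, 4.61 and 3.51 in KO MI. No MI library reached down to a sham library of its genotype, and the KO SH libraries lay below all WT SH libraries. *Cthrc1* rose in KO MI by 1.48 (SE 0.23, edgeR adjusted p = 0.0012) on the log2 scale and was lower in KO SH relative to WT SH, at -0.83 (SE 0.24, edgeR adjusted p = 0.0403). In WT MI its value was 0.70 (SE 0.22, edgeR adjusted p = 0.103). *Thbs1*, the gene of thrombospondin 1 (chromosome 2, 117941974 to 117957616), an activator of latent TGF-beta, was at 61.3, 67.7, 39.2 and 55.1 CPM in WT SH, 70.3, 80.7, 74.6 and 56.2 in WT MI, 26.2, 35.0, 36.8 and 37.6 in KO SH and 58.4, 109, 66.0 and 37.5 in KO MI. KO SH lay below WT SH without overlap, and each MI group overlapped its sham group. *Thbs1* was a DEG in KO MI, at 1.001 (SE 0.23, edgeR adjusted p = 0.0115), and in KO SH against WT SH, at -0.72 (SE 0.23, edgeR adjusted p = 0.0674), while WT MI gave 0.33 (SE 0.23, edgeR adjusted p = 0.506). *Thbs4*, a thrombospondin of tendon and injured heart muscle (chromosome 13, 92888095 to 92931501), was at 6.23, 4.73, 3.35 and 5.78 CPM in WT SH, 10.2, 21.4, 8.48 and 9.45 in WT MI, 7.03, 6.32, 7.45 and 9.34 in KO SH and 9.74, 21.9, 10.6 and 11.7 in KO MI. Replicate 2 stood far above the rest of its group in both MI groups. *Thbs4* rose in WT MI by 1.29 (SE 0.30, edgeR adjusted p = 0.0248) and in KO MI by 0.84 (SE 0.29, edgeR adjusted p = 0.0655) on the log2 scale.

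Of the CCN family, *Ccn4* (chromosome 15, 66763060 to 66795050), a target of Wnt signalling, had more RNA in KO hearts. It was at 13.2, 16.4, 14.8 and 15.1 CPM in WT SH, 19.0, 18.7, 17.5 and 18.6 in WT MI, 22.4, 22.9, 20.3 and 22.6 in KO SH and 24.2, 31.7, 27.4 and 20.9 in KO MI. Each KO group lay above the WT group of the same surgery without overlap. *Ccn4* was higher in KO SH than in WT SH by 0.57 (SE 0.10, edgeR adjusted p = 0.00248) on the log2 scale. Between the MI groups its log2 fold change was 0.50 (SE 0.10, edgeR adjusted p = 0.0111), which is just under the fold minimum before rounding. *Ccn5* (chromosome 2, 163662753 to 163675066), a family member that lacks the C-terminal domain, was rare, at 0.0961, 0.0802, 0.143 and 0.266 CPM in WT SH, 0.378, 0.108, 0.337 and 0.369 in WT MI, 0.0676, 0.0810, 0.104 and 0.210 in KO SH and 0.285, 1.299, 0.405 and 0.187 in KO MI. KO MI replicate 2 was the highest of all 16 libraries, WT MI replicate 2 was the lowest of its group, and the groups overlapped. Its counts per library ran from 3 to 66. *Ccn5* was a DEG in KO MI at 2.25 (SE 0.61, edgeR adjusted p = 0.0236). *Cilp* (chromosome 9, 65172200 to 65187888), a matrix protein that dampens TGF-beta signalling, was at 5.83, 5.51, 2.49 and 7.09 CPM in WT SH, 8.35, 12.7, 7.85 and 6.89 in WT MI, 2.05, 3.81, 4.55 and 4.69 in KO SH and 9.07, 20.9, 10.2 and 6.53 in KO MI. All KO MI libraries lay above all KO SH libraries, while the WT groups overlapped. *Cilp* rose in KO MI by 1.64 (SE 0.35, edgeR adjusted p = 0.00674) on the log2 scale, beside 0.77 (SE 0.34, edgeR adjusted p = 0.262) in WT MI.

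*Spp1*, the gene of osteopontin (chromosome 5, 104582165 to 104589235), which macrophages and activated fibroblasts secrete, showed the largest ratio of any member but was not tested, since its counts in KO SH summed to 8. It was at 0.115, 0.187, 0.229 and 0.314 CPM in WT SH, 6.79, 25.9, 24.3 and 18.9 in WT MI, 0, 0.108, 0.0417 and 0.0525 in KO SH and 4.27, 9.82, 11.6 and 14.2 in KO MI. Every MI library lay above every sham library. Summed over libraries and scaled by depth, *Spp1* was 91.8-fold higher in WT MI than in WT SH (95% counting interval 65.6 to 133) and 204-fold higher in KO MI than in KO SH (103 to 473), and these intervals cover counting error only. The two-sided exact permutation test on log2(CPM + 0.05) gave p = 0.0286 for each, the smallest p that 4 libraries against 4 allow. Without the filter on counts, edgeR gave log2 fold changes of 6.51 (edgeR adjusted p = 7.86e-10) and 7.61 (edgeR adjusted p = 5.22e-09). KO MI and WT MI overlapped, and this fit gave -0.94 between them (edgeR adjusted p = 0.105). Of the other matricellular members, *Thbs2* passed the test in both genotypes below the fold minimum, at 0.32 (SE 0.04, edgeR adjusted p = 0.000718) in WT MI and 0.39 (SE 0.04, edgeR adjusted p = 0.000269) in KO MI on the log2 scale. *Sparc* gave 0.09 (SE 0.08, edgeR adjusted p = 0.634) and 0.23 (SE 0.08, edgeR adjusted p = 0.0796), and *Comp*, of cartilage and tendon, gave 0.69 (SE 0.48, edgeR adjusted p = 0.505) and -0.21 (SE 0.47, edgeR adjusted p = 0.83).

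**Figure D2:**
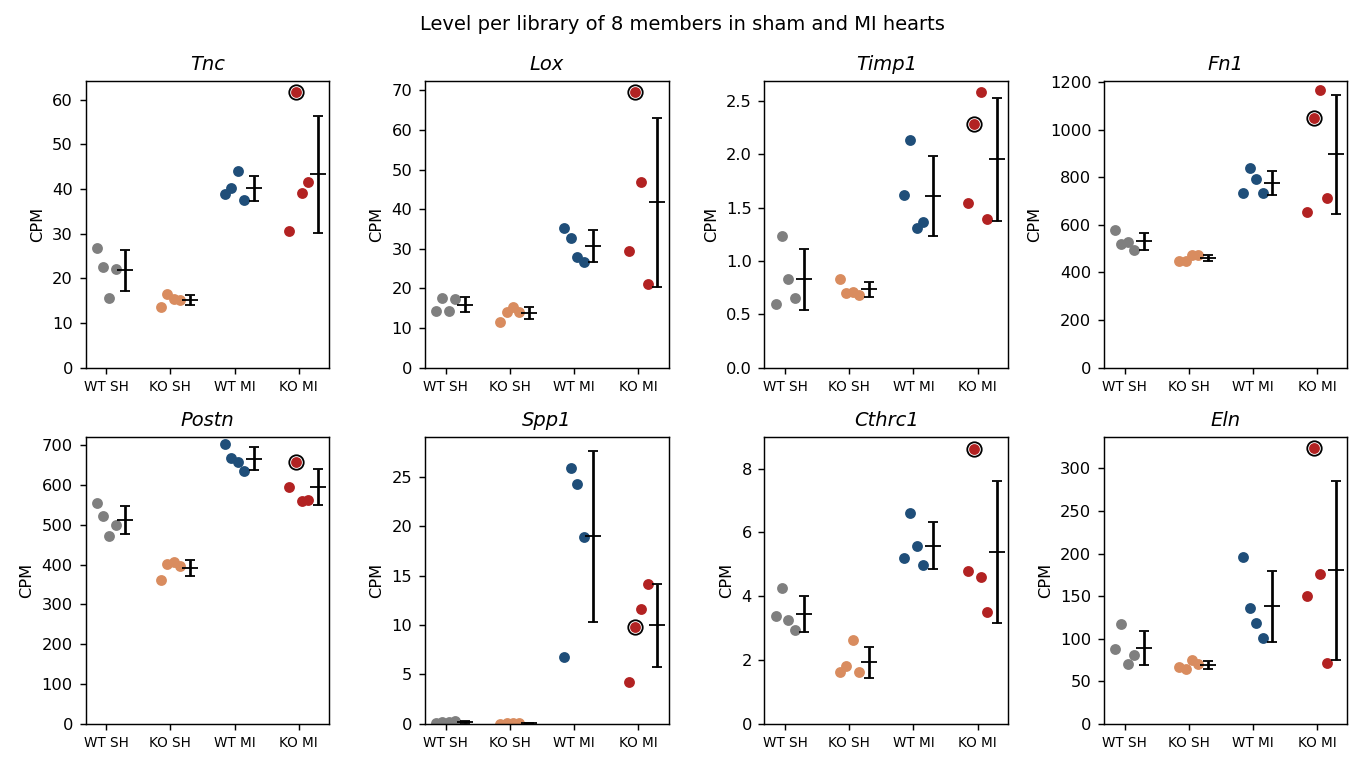
CPM in each library for 8 members, with points for libraries, a dash for the group mean and bars for the SD (n = 4), and an open circle around KO MI replicate 2. For *Tnc*, *Lox*, *Timp1*, *Fn1*, *Postn*, *Spp1* and *Cthrc1* the MI libraries lie above the sham libraries of the same genotype, while for *Eln* they overlap.

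Fibronectin, elastic fibre and microfibril genes made up 11 members, all tested. *Fn1* (chromosome 1, 71624673 to 71692419), which codes for fibronectin, was at 579, 521, 528 and 495 CPM in WT SH, 736, 841, 793 and 733 in WT MI, 448, 449.8, 473 and 474 in KO SH and 654, 1049, 1169 and 713 in KO MI. MI libraries lay above the sham libraries of their genotype, and KO SH lay below WT SH. *Fn1* rose in WT MI by 0.55 (SE 0.13, edgeR adjusted p = 0.0329) and in KO MI by 0.96 (SE 0.13, edgeR adjusted p = 0.000753) on the log2 scale. *Eln* (chromosome 5, 134731445 to 134776322), the gene of tropoelastin, was at 87.7, 117, 70.5 and 80.9 CPM in WT SH, 196, 136, 119 and 100.4 in WT MI, 66.4, 64.0, 74.4 and 70.03 in KO SH and 150.5, 324, 176 and 71.5 in KO MI. KO MI ranged widely, with replicate 2 the highest and replicate 7 within the sham range. *Eln* was a DEG in KO MI, at 1.39 (SE 0.30, edgeR adjusted p = 0.00821), and in WT MI its value was 0.63 (SE 0.30, edgeR adjusted p = 0.302). *Fbln2* (chromosome 6, 91189437 to 91249522), a fibulin that binds fibronectin and elastin, was at 126, 121, 107 and 108 CPM in WT SH, 179, 156, 163 and 154 in WT MI, 103, 116, 107 and 112 in KO SH and 140.5, 247, 169.7 and 133 in KO MI. Its MI libraries lay above the sham libraries in both genotypes. *Fbln2* rose by 0.50 (SE 0.14, edgeR adjusted p = 0.0529) in WT MI and by 0.66 (SE 0.14, edgeR adjusted p = 0.00581) in KO MI. *Fbln5*, a fibulin needed for elastic fibre assembly, was a DEG in KO MI at 0.69 (SE 0.23, edgeR adjusted p = 0.0625). This call was lost without any one KO SH replicate, without KO MI replicate 2, without KO MI replicates 2 and 7 together, with low-*Xist* libraries alone and when only the KO groups were fitted.

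*Efemp1*, *Fbln1* and *Fmod* were DEGs of WT MI and not of KO MI, a difference that the interaction test did not call for any of them. *Efemp1* (chromosome 11, 28803150 to 28876825), the gene of fibulin-3, was at 0.9997, 0.962, 0.944 and 0.653 CPM in WT SH, 1.66, 2.88, 2.41 and 2.30 in WT MI, 1.78, 1.86, 2.19 and 1.47 in KO SH and 0.935, 3.43, 2.18 and 2.52 in KO MI. WT SH lay below WT MI and KO SH, and KO MI replicate 1 fell within the range of WT SH. *Efemp1* rose in WT MI by 1.37 (SE 0.29, edgeR adjusted p = 0.0181) on the log2 scale and was higher in KO SH than in WT SH by 1.04 (SE 0.30, edgeR adjusted p = 0.0429), while KO MI against KO SH gave 0.30 (SE 0.28, edgeR adjusted p = 0.529) and the interaction -1.07 (SE 0.40, edgeR adjusted p = 0.262). *Fbln1* (chromosome 15, 85090150 to 85170737), the gene of fibulin-1, was at 12.8, 16.3, 10.7 and 12.2 CPM in WT SH, 19.4, 21.9, 20.2 and 18.2 in WT MI, 14.3, 14.1, 13.5 and 16.3 in KO SH and 17.9, 13.9, 27.4 and 21.4 in KO MI. WT MI lay above WT SH, and the KO groups overlapped. *Fbln1* rose in WT MI by 0.62 (SE 0.16, edgeR adjusted p = 0.0432), and KO MI gave 0.47 (SE 0.16, edgeR adjusted p = 0.061). The same pattern was seen for *Fmod* (chromosome 1, 133964992 to 133976015), which codes for the collagen-binding proteoglycan fibromodulin, at 3.98, 3.395, 3.12 and 4.93 CPM in WT SH, 9.75, 10.2, 9.09 and 6.15 in WT MI, 4.51, 6.97, 7.47 and 8.498 in KO SH and 8.54, 14.7, 7.86 and 3.18 in KO MI. WT SH lay below WT MI, while KO SH replicate 1 and KO MI replicate 7 fell within its range. *Fmod* rose in WT MI by 1.18 (SE 0.31, edgeR adjusted p = 0.0483), beside 0.33 (SE 0.30, edgeR adjusted p = 0.531) in KO MI and 0.82 (SE 0.32, edgeR adjusted p = 0.128) in KO SH against WT SH.

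Markers of epicardium and mesothelium, the cells that cover the heart, also differed between these groups. Their summed level over 10 genes was 51.1 to 63.0 CPM in WT SH, 68.1 to 79.7 in KO SH, 84.3 to 115 in WT MI and 70.3, 117, 144 and 97.1 in KO MI. Within KO MI, replicate 1 was the lowest for these markers and for *Efemp1*, while *Fbln1* was lowest in replicate 2 and *Fmod* in replicate 7. The markers were highest in replicate 3, as was *Fbln1*, and *Efemp1* and *Fmod* in replicate 2. The log2 fold change lay above 0 for 10 of these 10 markers in WT MI against WT SH, 10 in KO MI against KO SH and 9 in KO SH against WT SH, and 8, 5 and 6 of them were higher DEGs. None of these markers was at 0 in every library. Their part in the values of *Efemp1*, *Fbln1*, *Fmod* and the other members was not tested.

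*Mfap5* (chromosome 6, 122470878 to 122508875), a microfibril-associated glycoprotein that binds fibrillin, was lower in KO hearts after either surgery. It was at 18.5, 21.6, 20.2 and 20.3 CPM in WT SH, 17.6, 17.02, 15.6 and 19.6 in WT MI, 11.7, 14.1, 14.0 and 12.01 in KO SH and 14.5, 11.6, 12.2 and 9.31 in KO MI. All KO libraries lay below the WT libraries of the same surgery, and MI libraries overlapped sham libraries in both genotypes. *Mfap5* had a log2 fold change of -0.64 (SE 0.11, edgeR adjusted p = 0.00204) in KO SH against WT SH and -0.55 (SE 0.11, edgeR adjusted p = 0.0111) in KO MI against WT MI. The fibrillin genes had log2 fold changes of opposite sign in KO SH against WT SH, and neither was a DEG. *Fbn1*, the fibrillin of adult microfibrils, had a log2 fold change of -0.35 (SE 0.09, edgeR adjusted p = 0.0328), and *Fbn2*, the fibrillin of developing tissue, of 0.48 (SE 0.09, edgeR adjusted p = 0.00465), and both were under the fold minimum. *Fbn2* also had a log2 fold change of 0.43 (SE 0.09, edgeR adjusted p = 0.0169) in WT MI. *Mfap4* gave -0.04 (SE 0.16, edgeR adjusted p = 0.929) in WT MI and 0.47 (SE 0.16, edgeR adjusted p = 0.0611) in KO MI, and *Mfap2* gave 0.21 (SE 0.16, edgeR adjusted p = 0.539) and 0.39 (SE 0.16, edgeR adjusted p = 0.11).

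Of the 7 proteoglycan and hyaluronan synthase genes, *Has2* had the lowest ratio of KO SH to WT SH of all members tested. *Has2* (chromosome 15, 56528342 to 56557999) codes for the main hyaluronan synthase of the developing heart, and it was at 3.42, 2.41, 2.09 and 2.76 CPM in WT SH, 2.12, 2.52, 2.14 and 2.26 in WT MI, 0.902, 1.0802, 1.21 and 0.708 in KO SH and 1.52, 1.24, 1.14 and 1.85 in KO MI. Each KO library lay below each WT library of the same surgery. *Has2* had a log2 fold change of -1.45 (SE 0.20, edgeR adjusted p = 0.000255) in KO SH against WT SH, a fold of 0.366, and -0.66 (SE 0.19, edgeR adjusted p = 0.0891) in KO MI against WT MI. It rose in KO MI against KO SH by 0.54 (SE 0.20, edgeR adjusted p = 0.0909) on the log2 scale, while WT MI gave -0.25 (SE 0.18, edgeR adjusted p = 0.534). *Vcan* (chromosome 13, 89803431 to 89890814), the gene of the hyaluronan-binding proteoglycan versican, was at 171, 167, 145 and 165 CPM in WT SH, 196, 220.5, 203 and 174 in WT MI, 113, 126, 121 and 121 in KO SH and 168, 218, 181 and 173 in KO MI. The MI libraries lay above the sham libraries of their genotype, and KO SH lay below WT SH. *Vcan* was a DEG in KO MI at 0.62 (SE 0.08, edgeR adjusted p = 0.00059), and its values of 0.29 (SE 0.08, edgeR adjusted p = 0.0654) in WT MI and -0.43 (SE 0.08, edgeR adjusted p = 0.0048) in KO SH against WT SH were under the fold minimum.

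*Bgn* (chromosome X, 72527208 to 72539541), the gene of the small proteoglycan biglycan, was at 139, 148, 132 and 149 CPM in WT SH, 189, 189, 185 and 182 in WT MI, 106, 121, 127 and 129.96 in KO SH and 188, 335, 235 and 153 in KO MI. MI libraries were above sham libraries in both genotypes. *Bgn* rose in KO MI by 0.91 (SE 0.16, edgeR adjusted p = 0.0021) on the log2 scale, beside 0.39 (SE 0.15, edgeR adjusted p = 0.199) in WT MI. The related small proteoglycan genes *Dcn* and *Lum*, which are abundant in resting fibroblasts, gave 0.13 (SE 0.08, edgeR adjusted p = 0.362) and 0.09 (SE 0.10, edgeR adjusted p = 0.605) in KO MI, and *Has1* gave 0.09 (SE 0.19, edgeR adjusted p = 0.822).

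**Figure D3:**
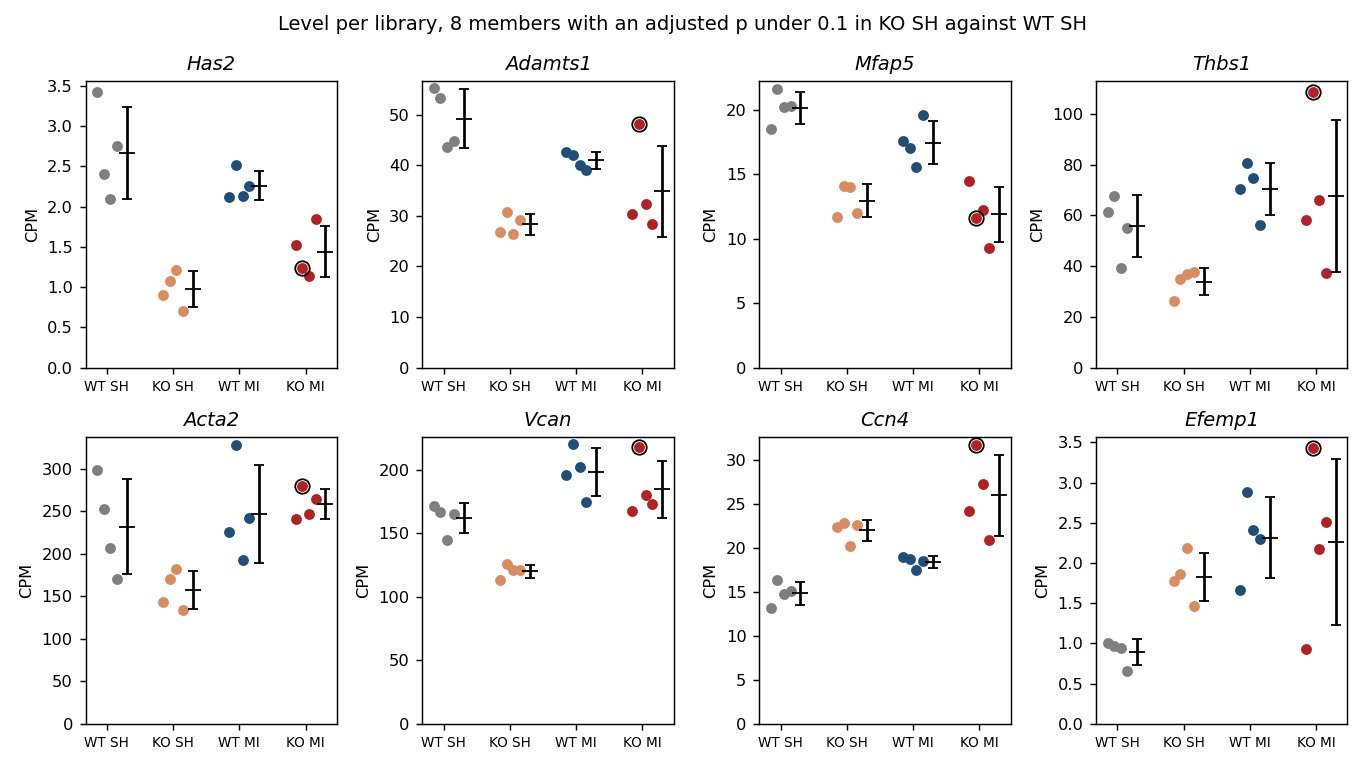
CPM in each library for 8 members with an adjusted p under 0.1 in KO SH against WT SH, with points for libraries, a dash for the group mean, bars for the SD (n = 4) and an open circle around KO MI replicate 2. *Has2* and *Mfap5* lie lower and *Ccn4* lies higher in KO than in WT after both surgeries.

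Crosslinking and procollagen processing was represented by 7 members. *Lox* (chromosome 18, 52649136 to 52663110), the gene of lysyl oxidase, which starts the crosslinking of collagen and elastin, was at 14.3, 17.7, 14.3 and 17.4 CPM in WT SH, 35.3, 32.6, 28.0 and 26.7 in WT MI, 11.6, 14.1, 15.3 and 14.1 in KO SH and 29.4, 69.5, 47.0 and 21.2 in KO MI. All MI libraries lay above all sham libraries of their genotype, and KO MI replicates 2 and 3 lay above every WT MI library. *Lox* rose in WT MI by 0.95 (SE 0.24, edgeR adjusted p = 0.0444) and in KO MI by 1.60 (SE 0.25, edgeR adjusted p = 0.0011) on the log2 scale. *Loxl1* (chromosome 9, 58195014 to 58220495), a lysyl oxidase that acts on elastin, was at 22.1, 22.5, 17.8 and 21.0 CPM in WT SH, 23.6, 23.4, 25.8 and 21.7 in WT MI, 14.9, 14.7, 16.6 and 16.5 in KO SH and 21.6, 31.0, 26.2 and 21.4 in KO MI. KO SH lay below WT SH and below KO MI, and WT MI overlapped WT SH. *Loxl1* rose in KO MI by 0.68 (SE 0.11, edgeR adjusted p = 0.0012), beside 0.18 (SE 0.11, edgeR adjusted p = 0.416) in WT MI, and had the smallest adjusted p of the interaction among the members, at 0.50 (SE 0.15, edgeR adjusted p = 0.197). *Loxl3* (chromosome 6, 83011152 to 83029543), another lysyl oxidase, was at 4.63, 3.07, 4.95 and 4.30 CPM in WT SH, 5.34, 5.57, 4.50 and 4.19 in WT MI, 3.58, 4.35, 3.03 and 3.96 in KO SH and 4.55, 7.13, 6.11 and 4.36 in KO MI. Its KO MI libraries lay above its KO SH libraries. *Loxl3* rose in KO MI by 0.58 (SE 0.17, edgeR adjusted p = 0.0371). *Loxl2*, the procollagen peptidase gene *Adamts2* and the peptidase enhancer gene *Pcolce* passed the test in KO MI below the fold minimum, at 0.45, 0.46 and 0.44 on the log2 scale. *Bmp1*, which cleaves the C-terminal propeptide, gave 0.13 (SE 0.07, edgeR adjusted p = 0.254).

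Proteases and inhibitors of the matrix made up 8 members, of which *Timp1* was the DEG of both MI comparisons. *Timp1* (chromosome X, 20736316 to 20740976) codes for a secreted inhibitor of metalloproteinases that injury induces, and it was at 0.596, 1.23, 0.8295 and 0.653 CPM in WT SH, 1.62, 2.13, 1.304 and 1.37 in WT MI, 0.834, 0.702, 0.709 and 0.682 in KO SH and 1.55, 2.28, 2.58 and 1.39 in KO MI. MI libraries lay above sham libraries in both genotypes, and replicate 2 was the highest of its group in WT MI. *Timp1* rose in WT MI by 0.97 (SE 0.25, edgeR adjusted p = 0.0436) and in KO MI by 1.42 (SE 0.25, edgeR adjusted p = 0.00243) on the log2 scale. *Timp2* and *Timp3*, inhibitors of the same family, had log2 fold changes between -0.05 and 0.24 in both MI comparisons and were not DEGs. *Adamts1* (chromosome 16, 85590579 to 85600009), which codes for a protease that cleaves versican and other proteoglycans, was at 55.2, 53.3, 43.6 and 44.7 CPM in WT SH, 42.6, 42.1, 40.0 and 39.1 in WT MI, 26.8, 30.7, 26.4 and 29.2 in KO SH and 30.4, 48.1, 32.3 and 28.4 in KO MI. WT SH was the highest group, without overlap with WT MI or KO SH. *Adamts1* was lower in KO SH relative to WT SH, at -0.80 (SE 0.13, edgeR adjusted p = 0.00116) on the log2 scale, and gave -0.27 (SE 0.12, edgeR adjusted p = 0.298) in WT MI and 0.30 (SE 0.13, edgeR adjusted p = 0.135) in KO MI.

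The membrane protease gene *Mmp14* passed the test below the fold minimum in both MI comparisons, at 0.30 (SE 0.07, edgeR adjusted p = 0.0308) in WT and 0.47 (SE 0.07, edgeR adjusted p = 0.000971) in KO on the log2 scale. The gelatinase gene *Mmp2* gave -0.04 (SE 0.07, edgeR adjusted p = 0.845) and 0.05 (SE 0.07, edgeR adjusted p = 0.729), and the aggrecanase gene *Adamts4* gave 0.11 (SE 0.10, edgeR adjusted p = 0.61) and 0.20 (SE 0.10, edgeR adjusted p = 0.199). *Mmp3*, the gene of stromelysin, had 0 counts in WT SH and 15 counts over the 4 WT MI libraries (2, 10, 2 and 1). This is a pooled ratio of 4.49 when 3 counts are set for the whole WT SH group. It had 3 counts in KO SH and 16 in KO MI, a ratio of 4.72 with a 95% counting interval of 1.35 to 25.3.

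RefSeq promoters of build GRCm38.p6 were matched by symbol for 30 of the 51 members. Shown are the 250 bases before the transcription start for *Tnc* and *Timp1*, which rose after MI in both genotypes, and for *Adamts1*, which was lower in KO SH, with the motifs found by a search in capitals. The windows are chr4:64047016-64047265 (minus strand) for *Tnc*, chrX:20869916-20870165 (plus strand) for *Timp1* and chr16:85803114-85803363 (minus strand) for *Adamts1*, each printed 5′ to 3′ on the strand of the gene.
Tnc: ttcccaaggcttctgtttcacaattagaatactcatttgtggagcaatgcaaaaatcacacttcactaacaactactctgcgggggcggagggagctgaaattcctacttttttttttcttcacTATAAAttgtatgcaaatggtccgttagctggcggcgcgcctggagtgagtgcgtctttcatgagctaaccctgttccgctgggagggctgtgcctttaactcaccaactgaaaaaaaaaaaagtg
Timp1: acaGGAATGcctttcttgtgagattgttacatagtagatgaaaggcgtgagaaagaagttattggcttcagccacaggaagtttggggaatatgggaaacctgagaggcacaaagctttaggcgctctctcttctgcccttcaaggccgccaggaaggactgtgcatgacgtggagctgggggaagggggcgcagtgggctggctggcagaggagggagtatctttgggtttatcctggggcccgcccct
Adamts1: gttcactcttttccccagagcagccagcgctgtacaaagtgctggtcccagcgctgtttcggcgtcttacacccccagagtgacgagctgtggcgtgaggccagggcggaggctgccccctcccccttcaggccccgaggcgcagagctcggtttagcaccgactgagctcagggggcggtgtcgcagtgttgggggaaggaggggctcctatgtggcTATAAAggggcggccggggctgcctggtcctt
Capitals mark TATAAA, the TATA box core, 126 bases before the start of *Tnc* and 32 bases before the start of *Adamts1*, and GGAATG, the core that TEAD factors bind, 247 bases before the start of *Timp1*. Both strands of the 250 bases before each start were searched, and a gene with several starts in the table was counted when any of them held the motif. TATAAA was found in 7 of the 30 members and in 14.3% of all 27025 genes of the table, and GGAATG in 5 members and 14.4% of all genes. *Postn* was counted for TATAAA and *Mfap2* for GGAATG by an alternative start. TGANTCA, the AP-1 motif, was in *Efemp1* and *Mmp3*, 2 of 30, beside 7.82% of all genes. For the CArG box of serum response factor only the strict form CCWWWWWWGG was searched, with W for A or T. This form was in 0 of 30 members, beside 1.62% of all genes. Stretches with another base in the W part were not counted, such as ccctatatgg and ccttgtttgg in the window of *Acta2*. A match describes these letters and is not a measured binding site.

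Receptors, signalling and contractile genes of fibroblasts were the last main group, with 4 members. *Acta2* (chromosome 19, 34217737 to 34232990), the gene of smooth muscle actin, is expressed in activated fibroblasts and in vascular smooth muscle, and it was at 298, 253, 207 and 170.2 CPM in WT SH, 226, 327, 192 and 242 in WT MI, 143, 170.0, 182 and 134 in KO SH and 241, 279.8, 247 and 264 in KO MI. KO SH and WT SH overlapped at WT SH replicate 4, and KO MI lay above KO SH. *Acta2* was lower in KO SH relative to WT SH, at -0.56 (SE 0.16, edgeR adjusted p = 0.0396), and rose in KO MI by 0.72 (SE 0.16, edgeR adjusted p = 0.00899) on the log2 scale, beside 0.09 (SE 0.16, edgeR adjusted p = 0.833) in WT MI. *Sfrp1* (chromosome 8, 23901263 to 23939648), a secreted Wnt antagonist, was at 24.5, 28.4, 20.3 and 21.8 CPM in WT SH, 31.9, 27.8, 31.7 and 28.7 in WT MI, 18.8, 19.96, 21.4 and 22.1 in KO SH and 28.3, 41.9, 38.1 and 29.0 in KO MI. KO MI lay above KO SH, and WT MI overlapped WT SH. *Sfrp1* rose in KO MI by 0.74 (SE 0.12, edgeR adjusted p = 0.00154), and WT MI gave 0.34 (SE 0.12, edgeR adjusted p = 0.148). The receptor genes *Pdgfra* and *Ddr2*, which mark fibroblasts whether or not they are activated, gave -0.06 (SE 0.10, edgeR adjusted p = 0.824) and -0.02 (SE 0.06, edgeR adjusted p = 0.906) in WT MI and -0.000695 (SE 0.10, edgeR adjusted p = 0.997) and 0.10 (SE 0.06, edgeR adjusted p = 0.262) in KO MI. *Ddr2* gave -0.24 (SE 0.06, edgeR adjusted p = 0.0166) in KO SH against WT SH, under the fold minimum. Of the basement membrane genes, *Agrn*, coding for agrin, passed the test below the fold minimum at -0.26 (SE 0.05, edgeR adjusted p = 0.00499) in KO MI and 0.27 (SE 0.05, edgeR adjusted p = 0.00468) in KO SH against WT SH, and *Nid1*, coding for nidogen-1, gave -0.01 (SE 0.05, edgeR adjusted p = 0.916) in KO MI.

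The first comparison asked how matrix genes respond to MI in hearts with *Lrrc10*. In WT MI against WT SH the 49 members had a median log2 fold change of 0.21, beside -0.00429 for all genes tested, and 39 lay above 0. The 9 higher DEGs were 2 of 11 matricellular genes (*Tnc* and *Thbs4*), 4 of 11 elastic fibre and fibronectin genes (*Fn1*, *Fbln1*, *Fbln2* and *Efemp1*), 1 of 7 proteoglycan genes (*Fmod*), 1 of 7 crosslinking genes (*Lox*) and 1 of 7 tested protease and inhibitor genes (*Timp1*). At the adjusted p alone, 14 members passed, all above 0, and the share of all genes at that rule was not computed. All WT MI libraries were above all WT SH libraries for 19 members (38.8%, beside 6.16% of all genes) and below them for 1, *Adamts1* (5.94% of all genes). The fibroblast marker list lay lower after MI, at 616 to 716 CPM summed over 10 genes in WT SH and 582 to 603 CPM in WT MI, with 10 of 10 log2 fold changes below 0 and 2 DEGs. Macrophage markers summed to 67.9 to 79.5 CPM in WT SH and 87.4 to 115 in WT MI, without overlap, with 10 of 10 above 0 and 1 DEG. Proliferation genes summed to 475 to 604 and 594 to 694 CPM, with 8 of 8 above 0 and 1 DEG. Endothelial markers summed to 1053 to 1089 CPM in WT SH and 885 to 997 in WT MI, and smooth muscle and pericyte markers to 1137 to 1172 and 915 to 1055 CPM, both without overlap and with 0 DEGs. Cardiomyocyte markers summed to 32203 to 43948 CPM in WT SH and 30461 to 32324 CPM in WT MI. The part of these marker lists in the result was not tested.

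The count of 9 fell to 3 without WT MI replicate 2, to 5 without WT SH replicate 1 or WT SH replicate 3, and to 6 with a term for high *Xist*. The count rose to 12 without the filter, which added *Cthrc1*, *Mmp3* and *Spp1*. With only the groups compared, or with the replicate block, it was 11, with *Cthrc1* and *Eln* added. *Cthrc1* was a DEG in WT MI in 7 of 23 alternatives, DESeq2 among them. *Tnc*, *Efemp1* and *Thbs4* were DEGs in WT MI under every alternative run. *Fn1* was not a DEG without WT MI replicate 2 (log2 fold change 0.51, edgeR adjusted p = 0.107). *Timp1* lost the call without WT SH replicate 1 or WT MI replicate 2 (log2 fold change 0.81 to 0.83, edgeR adjusted p 0.135 to 0.148) and with the term for high *Xist* (log2 fold change 0.92, edgeR adjusted p = 0.103). *Lox* was not called without WT SH replicate 1 or 3 or WT MI replicate 1 or 2 (log2 fold change 0.87 to 0.91, edgeR adjusted p 0.112 to 0.121). *Fbln1* was not called without WT SH replicate 1 or 3 or WT MI replicate 2 (log2 fold change 0.53 to 0.61, edgeR adjusted p 0.106 to 0.131). *Fbln2* was lost without WT SH replicate 3 or 4 or WT MI replicate 1, 2 or 3 (log2 fold change 0.45 to 0.52, edgeR adjusted p 0.099 to 0.141) and *Fmod* without WT SH replicate 1, 2 or 3 or WT MI replicate 1 or 2 (log2 fold change 1.0995 to 1.20, edgeR adjusted p 0.111 to 0.136). DESeq2 and its size factors in edgeR each put *Fbln2* at 0.499, under the fold minimum. The term for high *Xist* lost *Fbln2* (0.47, edgeR adjusted p = 0.118) and *Fmod* (1.13, edgeR adjusted p = 0.104). Low-*Xist* libraries alone lost *Fn1* (0.53, edgeR adjusted p = 0.128) and *Timp1* (0.84, edgeR adjusted p = 0.343).

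The second comparison asked the same of hearts without *Lrrc10*. In KO MI against KO SH the median log2 fold change of the members was 0.45, beside -0.0103 for all genes tested, and 44 of 49 lay above 0. The 20 higher DEGs were 7 of 11 matricellular genes, 4 of 11 elastic fibre and fibronectin genes, 3 of 7 proteoglycan and hyaluronan genes, 3 of 7 crosslinking genes, 1 of 7 tested protease and inhibitor genes and 2 of 4 receptor, signalling and contractile genes. Of these 20, 6 were also DEGs in WT MI (*Fbln2*, *Fn1*, *Lox*, *Thbs4*, *Timp1* and *Tnc*), which is 30% of the KO calls and 66.7% of the WT calls. Matricellular genes had a median of 0.84 in KO and 0.69 in WT. All KO MI libraries lay above all KO SH libraries for 20 members (40.8%, beside 7.68% of all genes) and below for 1, *Agrn* (7.24% of all genes).

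Replicate 2 was the highest of the KO MI libraries in 35 of the 49 members (71.4%, beside 28.1% of all genes tested), and replicate 7 was the lowest in 27 (55.1%, beside 33.0%). The summed level of the 51 members was 5457, 7108, 6372 and 5063 CPM in the KO MI libraries, against 4079 to 4389 in KO SH, 4522 to 5109.6 in WT SH and 5483 to 5901 in WT MI. Skeletal muscle markers, which ventricles should largely lack, summed to 10.4, 118, 18.9 and 187 CPM over 13 genes in KO MI and to between 9.48 and 37.5 CPM in the other 12 libraries, and 8 of the 9 tested were DEGs, higher in KO MI than in KO SH. Macrophage markers summed to 62.9 to 69.97 CPM in KO SH and 76.2 to 144 in KO MI, with 8 of 10 DEGs, all higher. Proliferation genes summed to 401 to 455 CPM in KO SH and 597 to 832 in KO MI, and 8 of 8 were higher DEGs. Endothelial markers summed to 966 to 1022 and 819 to 979 CPM, and smooth muscle and pericyte markers to 1180.3 to 1210.4 and 846 to 1056 CPM, in KO SH and KO MI. Fibroblast markers summed to 543 to 573 CPM in KO MI against 528 to 558 in KO SH. The part of these marker lists in the member counts was not tested. Without KO MI replicates 2 and 7 together, 19 members were DEGs in KO MI against KO SH. *Has2*, *Thbs4* and *Fbln5* were not among them, and *Fbln1* and *Mfap4* were added.

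**Figure D4:**
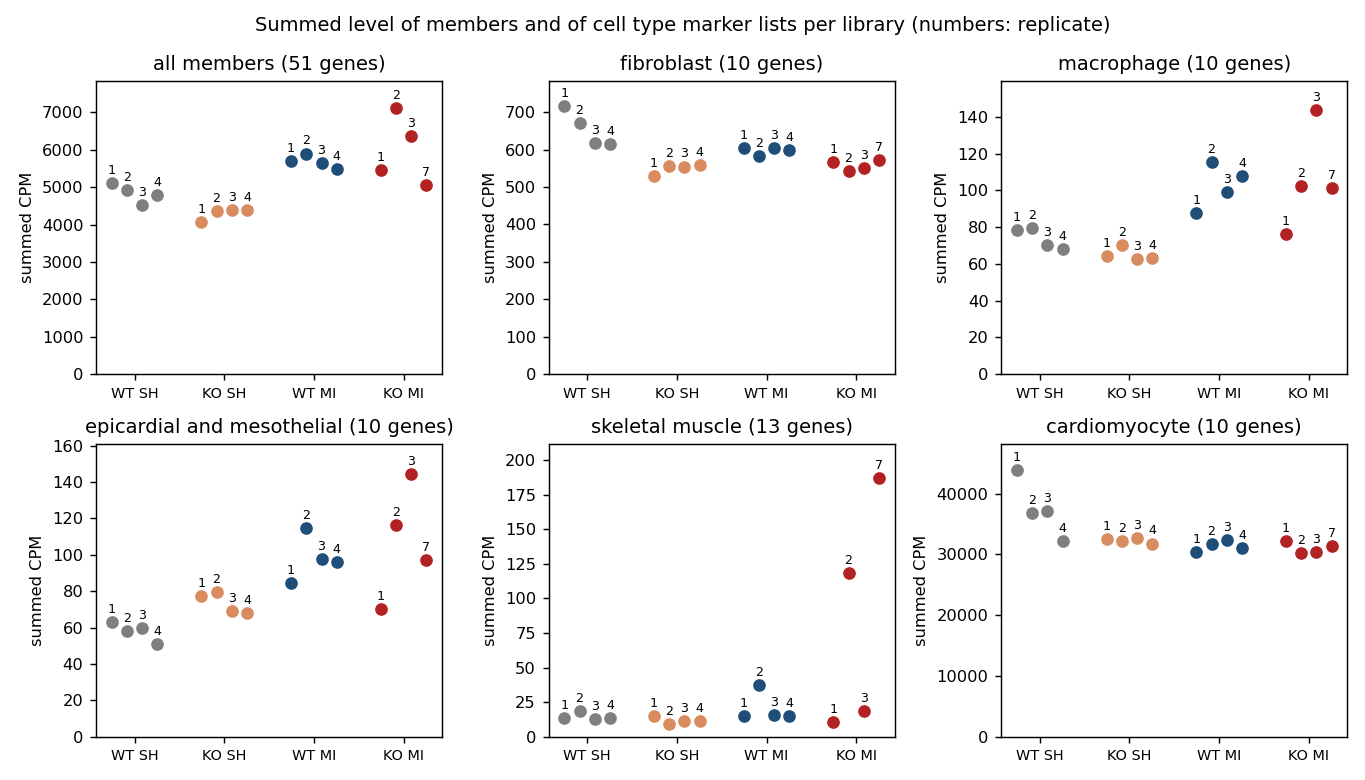
Summed CPM per library of the 51 members and of 5 marker lists, with the replicate number above each point. The sum of the members is above the sham range of its genotype in every MI library, while fibroblast marker sums overlap between KO MI and KO SH and lie lower in WT MI than in WT SH.

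The KO MI count fell to 15 without KO MI replicate 2, and to 10 with low-*Xist* libraries alone, a fit with fewer libraries. Low-*Xist* libraries alone did not call *Acta2*, *Ccn5*, *Cilp*, *Eln*, *Fbln2*, *Fbln5*, *Has2*, *Loxl3*, *Postn*, *Thbs1* or *Thbs4*, and added *Fbln1*. *Tnc*, *Vcan*, *Fn1*, *Lox*, *Cthrc1*, *Loxl1*, *Sfrp1*, *Bgn* and *Timp1* were DEGs in KO MI under every alternative run. *Has2* was lost in 12 of 16 fits without a library (log2 fold change 0.41 to 0.60, edgeR adjusted p 0.101 to 0.235). These left out WT SH replicate 2 or 4, KO SH replicate 1, 2 or 4, any WT MI replicate, or KO MI replicate 1, 2 or 7. *Thbs4* lost the call without KO SH replicate 1, 2 or 3 or KO MI replicate 2 (log2 fold change 0.50 to 0.84, edgeR adjusted p 0.129 to 0.3), *Loxl3* without KO SH replicate 3 or KO MI replicate 2 (log2 fold change 0.43 to 0.49, edgeR adjusted p 0.116 to 0.151), *Ccn5* without KO MI replicate 2 (log2 fold change 1.36, edgeR adjusted p = 0.15) and *Fbln2* without KO MI replicate 2 (log2 fold change 0.43, edgeR adjusted p = 0.00474).

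The third comparison asked whether the level of these genes differed between KO and WT hearts without infarction. Wild-type mice came from a supplier and littermate status is not given. Loss of *Lrrc10* and breeding source therefore cannot be told apart, here or after MI. In KO SH against WT SH the members had a median log2 fold change of -0.20, beside 0.0053 for all genes, and 36 of 49 lay below 0. *Has2*, *Adamts1*, *Mfap5*, *Cthrc1*, *Thbs1*, *Acta2* and *Tnc* were lower, and *Ccn4* and *Efemp1* were higher. At the adjusted p alone, 15 members were lower and 4 higher, and the share of all genes at that rule was not computed. KO SH libraries lay below all WT SH libraries for 16 members (32.7%, beside 10.2% of all genes) and above them for 5 (8.35% of all genes). All 7 crosslinking genes lay below 0, from -0.41 to -0.07, and none of them was a DEG. Fibroblast markers summed to 528 to 558 CPM in KO SH against 616 to 716 in WT SH, without overlap, with 1 of 10 a DEG, and 3 of 10 macrophage markers were lower DEGs, with 9 of 10 below 0. Proliferation genes summed to 401 to 455 CPM in KO SH against 475 to 604 in WT SH, with 7 of 8 below 0 and 0 DEGs. Endothelial markers were at 966 to 1022 against 1053 to 1089 CPM and smooth muscle and pericyte markers at 1180.3 to 1210.4 against 1137 to 1172 CPM. The sums of fibroblast, proliferation, endothelial and smooth muscle and pericyte genes did not overlap between KO SH and WT SH. The part of these markers in the result was not tested, and the difference in *Xist* between the groups was entered as a term, which left 9 DEGs. Low-*Xist* libraries alone, with fewer KO SH libraries, did not call *Acta2* (log2 fold change -0.55, edgeR adjusted p = 0.168) or *Cthrc1* (-0.67, edgeR adjusted p = 0.149). They also did not call *Thbs1* (-0.58, edgeR adjusted p = 0.202) or *Tnc* (-0.52, edgeR adjusted p = 0.129), and they added *Fmod* and *Thbs4*.

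**Figure D5:**
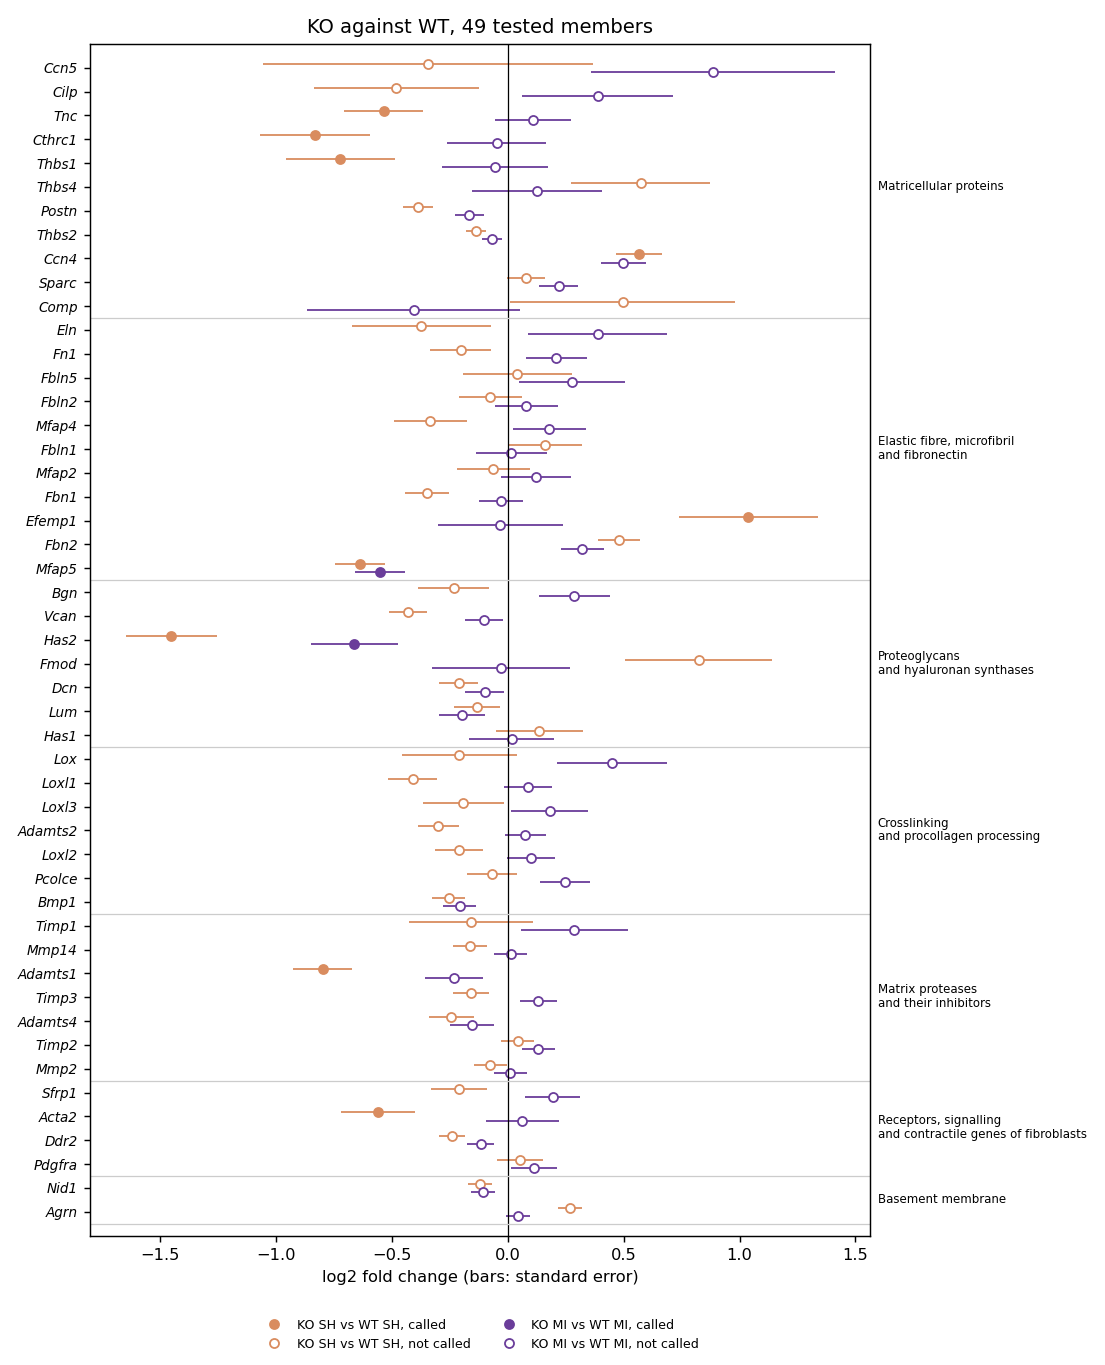
Log2 fold change with its standard error for each of the 49 tested members in KO SH against WT SH and in KO MI against WT MI, grouped by role. In sham hearts 36 members lie below 0, and after MI 18 do.

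*Has2*, *Adamts1*, *Mfap5* and *Ccn4* were DEGs in KO SH under every alternative run. The count of 9 fell to 5 without WT SH replicate 2, KO SH replicate 1 or KO SH replicate 4. *Acta2* was lost without WT SH replicate 1 or 2 or KO SH replicate 1 or 4 (log2 fold change -0.52 to -0.42, edgeR adjusted p 0.102 to 0.156). *Cthrc1* was lost without WT SH replicate 2 or KO SH replicate 1 or 4 (log2 fold change -0.76 to -0.72, edgeR adjusted p 0.114 to 0.117) and *Efemp1* without KO SH replicate 3 (log2 fold change 0.93, edgeR adjusted p = 0.112). *Thbs1* was lost without WT SH replicate 1 or 2 or KO SH replicate 1, 2, 3 or 4 (log2 fold change -0.78 to -0.62, edgeR adjusted p 0.107 to 0.188) and *Tnc* without WT SH replicate 1 or 2 or KO SH replicate 1, 3 or 4 (log2 fold change -0.54 to -0.42, edgeR adjusted p 0.116 to 0.215).

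After MI, 2 members were DEGs between the genotypes. In KO MI against WT MI the median log2 fold change of the members was 0.08, beside 0.0077 for all genes, with 31 above 0. *Has2* and *Mfap5*, lower in KO SH as well, were the 2 DEGs. Libraries did not overlap for 6 members, beside 6.47% of all genes. Of these, 5 were lower in KO MI (3.73% of all genes) and 1, *Ccn4*, was higher (2.74% of all genes). *Mfap5* was not a DEG without WT MI replicate 4 or KO MI replicate 7 (log2 fold change -0.49 to -0.45, edgeR adjusted p 0.0133 to 0.0458) or without both KO MI replicates 2 and 7 (log2 fold change -0.39, edgeR adjusted p = 0.0771). *Has2* lost the call in 11 of 16 fits without a library (log2 fold change -0.70 to -0.56, edgeR adjusted p 0.101 to 0.233), which left out WT SH replicate 2 or 4, KO SH replicate 1 or 2, any WT MI replicate, or KO MI replicate 1, 2 or 3. *Has2* was also lost when only the MI groups were fitted (log2 fold change -0.66, edgeR adjusted p = 0.159) and with the term for high *Xist* (-0.66, edgeR adjusted p = 0.104). The call was further lost without KO MI replicates 2 and 7 (-0.76, edgeR adjusted p = 0.113) and with low-*Xist* libraries alone (-0.53, edgeR adjusted p = 0.695). *Mfap5* was also lost with the replicate number as a block (-0.44, edgeR adjusted p = 0.0382).

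Side by side, the log2 fold changes with MI were larger in KO than in WT for 39 of 49 members, and the comparisons share the sham libraries with the comparison of the genotypes after sham. For *Acta2* the group means were 232 ± 55.5 CPM in WT SH, 157 ± 22.5 in KO SH, 247 ± 57.5 in WT MI and 258 ± 17.6 in KO MI (SD, n = 4). *Tnc* means were 21.8 ± 4.60, 15.1 ± 1.16, 40.1 ± 2.78 and 43.3 ± 13.2 CPM in the same order. In both genes the KO group was the lower one after sham and the means of the MI groups differed by less than the SD of KO MI. For *Tnc* that SD includes replicate 2, at 61.8 CPM. These genes are examples and not all members had this order, since *Ccn4* was higher in KO after both surgeries. The interaction tests whether the MI response differed, and 0 of 49 members were DEGs in it in the quasi-likelihood test of edgeR after Benjamini-Hochberg adjustment. At an unadjusted p under 0.05 there were 18 members, 16 of them with a larger log2 fold change in KO. The share of all genes at that p was not computed, so these 18 cannot be set against it. The median of the interaction over members was 0.22, beside 0.0017 for all genes. DESeq2 called 2 members (*Adamts1* and *Loxl1*). Without KO MI replicate 7, edgeR called 8 (*Adamts1*, *Bgn*, *Cthrc1*, *Eln*, *Lox*, *Loxl1*, *Mfap4* and *Thbs1*), and without replicates 2 and 7 it called 1, *Efemp1*. The share of all genes called in these alternative fits is not given here.

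Other genes of the same pathways were also mostly higher where they were DEGs after MI. A further 105 genes for matrix glycoproteins, proteoglycans, proteases, crosslinking and fibroblast activation were listed, and 101 were tested. Of these, counting DEGs, 10 were higher and 1 lower in WT MI, 30 higher and 3 lower in KO MI, 3 higher and 5 lower in KO SH against WT SH, and 2 higher and 3 lower in KO MI against WT MI, with 0 in the interaction. Among 29 glycoproteins, the latent TGF-beta binding protein gene *Ltbp2* rose in both, by 1.31 (SE 0.30, edgeR adjusted p = 0.0231) in WT MI and 2.17 (SE 0.31, edgeR adjusted p = 0.000753) in KO MI on the log2 scale. *Aebp1* rose by 0.60 and 0.81 (edgeR adjusted p = 0.0288 and 0.00238). *Ltbp1* and *Ccn3* were lower in KO after both surgeries, *Ltbp1* at -0.74 (SE 0.09, edgeR adjusted p = 0.000109) after sham and -0.56 (SE 0.09, edgeR adjusted p = 0.00268) after MI, and *Ccn3* at -0.62 (SE 0.10, edgeR adjusted p = 0.00158) and -0.53 (SE 0.10, edgeR adjusted p = 0.00934). Of the 29, 3 rose in WT MI, and in KO MI 6 rose and 1 fell.

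Of 13 other proteoglycan genes, 1 rose in WT MI, *Acan*, which codes for the cartilage proteoglycan aggrecan, at 1.37 (SE 0.29, edgeR adjusted p = 0.0166), and 4 rose in KO MI, among them *Srpx2* at 0.77 (SE 0.21, edgeR adjusted p = 0.0223), *Prg4* at 1.40 (SE 0.41, edgeR adjusted p = 0.036) and *Srpx* at 0.51 (SE 0.15, edgeR adjusted p = 0.0407). Of 24 tested proteases and inhibitors, 3 rose in WT MI, while in KO MI 6 rose and 1 fell. The gelatinase gene *Mmp9* rose by 3.48 (SE 0.57, edgeR adjusted p = 0.0033) and 2.55 (SE 0.53, edgeR adjusted p = 0.00606) in WT MI and KO MI, and *Adam12* by 0.66 (SE 0.11, edgeR adjusted p = 0.00425) and 0.85 (SE 0.11, edgeR adjusted p = 0.000557). *Mmp23* rose by 0.92 (SE 0.17, edgeR adjusted p = 0.00305) and *Plau*, the gene of urokinase, by 1.15 (SE 0.22, edgeR adjusted p = 0.00318) in KO MI. Among 17 collagen-processing genes, 1 rose in WT MI and 4 in KO MI, namely *Adamts14* (0.67), *P4ha3* (1.27), *Plod2* (0.60) and the transglutaminase gene *Tgm2* (0.79), and *Tgm2* was higher in KO MI relative to WT MI by 0.66 (SE 0.18, edgeR adjusted p = 0.0767).

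Fibroblast activation genes outside the 51 counted 2 higher and 1 lower of 18 tested in WT MI, and 10 higher and 1 lower in KO MI. *Runx1*, a transcription factor gene, rose by 1.13 (SE 0.17, edgeR adjusted p = 0.00209) and 1.302 (SE 0.17, edgeR adjusted p = 0.000568). *Myl9*, which codes for a smooth muscle myosin light chain, rose in KO MI by 1.58 (SE 0.21, edgeR adjusted p = 0.000557) and *Cnn2*, coding for calponin-2, by 0.66 (SE 0.10, edgeR adjusted p = 0.00106), beside 0.14 and -0.03 in WT MI. Like *Acta2*, *Myl9* was lower in KO SH relative to WT SH, at -0.72 (SE 0.20, edgeR adjusted p = 0.0389), and unlike *Acta2* it was higher in KO MI relative to WT MI, at 0.72 (SE 0.20, edgeR adjusted p = 0.0822). *Thy1*, a surface marker of fibroblasts, was lower in KO SH, at -0.63 (SE 0.09, edgeR adjusted p = 0.000492). *Mmp8*, *Mmp12*, *Ctsk* and *Il11* did not pass the count filter.

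The members that were DEGs in no comparison numbered 23. Their log2 fold changes ranged from -0.06 to 0.69 in WT MI, from -0.26 to 0.47 in KO MI, from -0.35 to 0.50 in KO SH against WT SH and from -0.41 to 0.32 in KO MI against WT MI. They included the abundant matrix genes *Sparc*, *Dcn*, *Lum*, *Fbn1* and *Nid1*, the inhibitors *Timp2* and *Timp3*, and the receptors *Pdgfra* and *Ddr2*.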

How the data were processed

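Bulk RNA of 16 ventricle samples was sequenced as strand-specific read pairs of 150 bases, and the groups were taken from the labels. The authors deposited unnormalized expected counts from RSEM, written as whole numbers, 1 per gene and library. The paper's methods name Skewer, STAR and RSEM with GRCm39, while the submitters' processing notes name cutadapt 3.4, HISAT2 2.2.1 and RSEM 1.1.17, and which of them made the table is not given in the sources used here, nor is the annotation release. RSEM shares a read that fits several genes among them, and the table gives no uncertainty for this. Totals per library were 33783874 to 57470159.

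Counts were analysed in R 4.3.3 with edgeR 4.0.16 and limma 3.58.1, after dropping genes with a summed count under 10 in any of the 4 groups. TMM normalization and 1 quasi-likelihood fit with a coefficient per group gave 4 comparisons and the interaction, all two-sided. DESeq2 1.42.0, which the study used, was an alternative. The others were its size factors in edgeR, no filter, only the groups compared, the replicate number as a block, a term for high *Xist* (over 100 CPM), each library left out, and KO MI replicates 2 and 7 left out together. Fitting low-*Xist* libraries alone was added after seeing the data. The share of all genes called is given for the main fit only, so DEG counts of the alternatives cannot be set against such a share. Standard errors are on the log2 scale from the edgeR fit. CPM uses the TMM-scaled library, and TPM divides CPM by merged exon length from GENCODE M39, rescaled to a common sum.

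The members and all lists were chosen with earlier results of these data known. Given in full are the called members, up to 25 in order of their smallest adjusted p, which left *Fbln5*. Of each other pathway list up to 4 called genes were named in the same order, and further members and genes were named after their values were seen. The edgeR p-values set a difference between groups against the spread between libraries. That spread was estimated over all libraries of the fit, with information shared across genes, and covers these libraries only.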

Additional observations from a re-analysis of the deposited data

Results flagged for a closer look

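The highest and lowest library of each group were compared with the rest of the group for the 25 members given in full and *Spp1*, and 4 of 104 groups had a library whose gap to the nearest other exceeded Dixon's 95% limit. Chance flags about 1 in 20 groups, which is 5.2 of 104. *Efemp1* in WT SH replicate 4 was low, at 0.653 CPM, where the other WT SH libraries had 0.944 to 0.9997 CPM. *Ccn5* in WT MI replicate 2 was low, at 0.108 CPM against 0.337 to 0.378 CPM. *Thbs4* in WT MI replicate 2 was high, at 21.4 CPM against 8.48 to 10.2 CPM, and *Thbs4* in KO MI replicate 2 was also high, at 21.9 CPM against 9.74 to 11.7 CPM. These values stay in every fit above except the ones that leave their library out.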

How the results depend on the processing

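No called value of a member given in full changed direction under any alternative, and of 918 such values 813 stayed past the thresholds and 105 did not. Leaving out one library at a time gave 3 to 10 member DEGs in WT MI against WT SH, 15 to 25 in KO MI against KO SH, 5 to 10 in KO SH against WT SH, 1 to 3 in KO MI against WT MI and 0 to 8 in the interaction. DESeq2 gave 2 in the interaction. In KO MI against WT MI the count of 2 became 3 with DESeq2, 3 with its size factors in edgeR, 1 with only the MI groups in the fit, 1 with a term for high *Xist*, 1 with low-*Xist* libraries alone and 0 without KO MI replicates 2 and 7, a fit that gave 1 in the interaction. Low-*Xist* libraries alone, fitted with fewer libraries, gave 10 in KO MI against KO SH. Low-*Xist* libraries alone lost 17 called values of members, the *Xist* term 5 and the replicate block 2. The causes of the other shifts were not tested.

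With the replicate number as a block, the counts were 11, 22, 10 and 3 in the 4 comparisons and 8 in the interaction (*Adamts1*, *Bgn*, *Cthrc1*, *Efemp1*, *Lox*, *Loxl1*, *Mfap4* and *Thbs1*). The share of all genes called in this fit is not given here, so these counts cannot be set against it. Number 7 occurs in KO MI alone, so the block fits KO MI replicate 7 by itself, much as leaving it out does. All of these 8 but *Efemp1* were also called in the interaction without KO MI replicate 7. Deviations of same-numbered libraries from their group means correlated between -0.131 and 0.175 over 21 pairs, 3 of them over 0.1. Libraries with different numbers were not compared, so whether the numbers pair the libraries cannot be told from these values. Members near the floor of 3 counts per library, such as *Ccn5*, *Comp* and *Mmp3*, are limited by depth.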
